A study of Mus musculus with 8 samples.

Results

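The RNAs described here encode the machinery that moves proteins between the endoplasmic reticulum (ER), the Golgi and the endosomes. They were chosen by symbol: the COPI coat genes Copa, Copb1, Copb2, Cope, Copg1, Copg2, Copz1 and Copz2, and every gene whose symbol starts with Sec, Stx or Vps followed by a digit, or with Trappc, Tmed, Yif1 or Yipf, with pseudogene symbols left out. This gave 114 genes among the 15962 genes listed in all 8 tables, and 108 of them were high enough to be tested, among 13968 genes tested in all. Sec31b, Vps25, Sec14l2, Stx11, Stx16 and Tmed8 reached at most 0.998 scaled TPM in any library and were not tested (TPM is the share of a library that a transcript takes, corrected for its length). Tmed1 and Vps26b met the symbol rule but were listed in 4 of the 8 tables and were not used here. A symbol does not fix a function. Vps72 is a chromatin remodelling subunit, Sec1 belongs to the fucosyltransferases, and the Sec14l genes encode lipid-binding proteins.

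Proteins enter the ER through the SEC61 channel and leave it in COPII-coated vesicles, which form at exit sites organised by SEC16. TRAPP complexes activate Rab GTPases that recruit tethers, and SNARE proteins such as the syntaxins then drive membrane fusion. COPI vesicles return escaped ER proteins and recycle receptors, while many VPS proteins act later, in endosomal sorting and in fusion with lysosomes. Fully grown oocytes hold large stores of mRNA, many of which are lost during meiotic maturation. BTG4 is an adaptor that brings the CCR4-NOT deadenylase, which shortens poly(A) tails, to these mRNAs.

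Polyadenylated RNA was measured by Smart-seq2, a full-length cDNA method primed on the poly(A) tail, in oocytes of 6-week-old ICR female mice. The 4 groups were germinal vesicle (GV) oocytes, arrested before maturation, metaphase II (MII) oocytes, and MII oocytes that had received capped RNA for Myc-tagged BTG4, either wild type (Btg4wt) or with alanine in place of 3 neighbouring phosphorylation sites (Btg4tm). The oocytes carried their own Btg4 gene in all groups, and GV and MII controls were cultured in vitro without injection. Each group had 2 libraries of 15 oocytes, so a lower level in every oocyte and loss in some of the oocytes cannot be told apart, and neither can loss of an RNA and shortening of its tail. The labels do not say whether the libraries of a group came from separate mice, so p-values measure the spread between these libraries, which may be technical.

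Replicates correlated at r of 0.982 to 0.987 across the genes tested, and the median absolute log2 difference between replicates of the traffic genes was 0.11 to 0.18. All 13 oocyte markers were detected, with a summed level of 42530 to 54822 scaled TPM per library. Of 14 cumulus and granulosa cell markers only 4 were listed in all tables (Inha, Cyp19a1, Kitl and Nr5a2), and their summed level was 34.9 to 49.5 scaled TPM, mostly from Cyp19a1 and Nr5a2. Inha, the one of the 4 that was called, had 4.37 and 2.11 scaled TPM in GV, 0 and 0.532 in MII, 1.88 and 1.09 in Btg4wt, and 9.83 and 5.18 in Btg4tm, lower in MII and higher in Btg4tm like the falling traffic genes, and its part in the results was not tested. Btg4 RNA stood at 5792 and 6002 scaled TPM in the MII libraries, at 5178 and 5510 in the libraries labelled Btg4wt and at 3725 and 4068 in those labelled Btg4tm. In this RNA, primed on the poly(A) tail, the injected groups were thus not above the uninjected one. The values do not separate injected from endogenous Btg4 RNA. By immunoblot the paper reported overexpression of both BTG4 proteins, which seemed to lower endogenous BTG4. The share of TPM from mitochondrially encoded genes also moved with the groups, from 0.625% and 0.651% in GV to 2.60% and 2.71% in MII, 1.75% and 2.05% in Btg4wt and 0.765% and 1.02% in Btg4tm, and its part in the results was not tested. The 114 traffic genes together took 0.546% and 0.553% of TPM in GV and 0.463% and 0.473% in MII.

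The comparison of MII with GV asks how the stored traffic RNAs changed during maturation. Values were scaled between libraries by the median of ratios and fitted with limma on log2(scaled TPM + 1), and a gene was called at a Benjamini-Hochberg adjusted p under 0.05 and a change over 1 on the log2 scale. Among the 108 traffic genes tested, 34 (31.5%) were called lower in MII and 9 (8.33%) higher. Over all genes tested, 24% were called lower and 12.5% higher. Beside these, the traffic genes had a larger share of falls and a smaller share of rises in this scaling. The smaller share of rises did not hold in every setting. The count of rises was 14 without GV replicate 2 and 14 with a pseudocount of 0.1, where 13% and 15.7% of all genes tested were called higher. The median log2 change of the traffic genes was -0.18, against 0.00 over all genes tested, and their changes ran from -6.03 for Yif1a to 1.46 for Trappc2. With this scaling the falls reached further than the rises, as they did over all genes tested. The quartiles were -1.24 and 0.73 for the traffic genes and -0.97 and 0.68 for all genes tested. The MII mean of the 34 genes called lower was at a median of 20.2% of the GV mean, with a range from 0.874% for Yif1a to 46.8% for Yipf2.

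The split between rises and falls depended on the scaling. The TPM as deposited gave 5 traffic genes higher and 36 lower, against 8.2% and 26.5% of all genes tested. Quantile normalization, which moved the median of all genes to 0.27, gave 27 and 26, against 22.2% and 19.4%. With it the share of rises among the 108 traffic genes was above that of all genes tested. Scaling to the mitochondrially encoded genes gave 0 and 100, against 0.0501% and 81.6%, with the median of all genes at -1.74. Under that last scaling the 9 genes called higher fell by 0.67 to 1.15 on the log2 scale, and lay 0.59 to 1.07 above the median of all genes. Rises below are therefore rises relative to the bulk of oocyte RNAs. The median of the traffic genes lay 0.13 to 0.19 below that of all genes tested under each of these scalings.

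The comparison of Btg4tm with Btg4wt asks what the mutation of the phosphorylation sites changed, and it shares no library with the comparison of MII and GV. Of the 108 traffic genes tested, 28 (25.9%) were called higher in Btg4tm and 9 (8.33%) lower. The background over all genes tested was 18.1% higher and 7.94% lower. Scaling to the mitochondrially encoded genes gave 56 higher and 0 lower, against 43.6% and 0.494% of all genes tested, with the median of all genes at 0.88. The 9 genes called lower stayed negative under that scaling without reaching the limit. Of the 34 genes called lower in MII, 27 were called higher in Btg4tm, which was 79.4% of the falling genes and 96.4% of the genes higher in Btg4tm. Over all genes tested the same overlap was 70% and 92.5%. Every one of the 34 had both Btg4tm libraries above both Btg4wt libraries, as did 93.1% of all genes called lower in MII. The 34 genes include Vps51, Copz2 and Tmed6, which passed the filter on low values only through groups where they were high. The means of the 34 stood at a median of 21.7% of the GV mean in Btg4wt and of 80.1% in Btg4tm. On the log2 scale 31 of the 34 (91.2%) were below GV in Btg4tm, as were 90.3% of all genes called lower in MII. All of these were chosen on the same GV libraries.

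**Figure D1:**
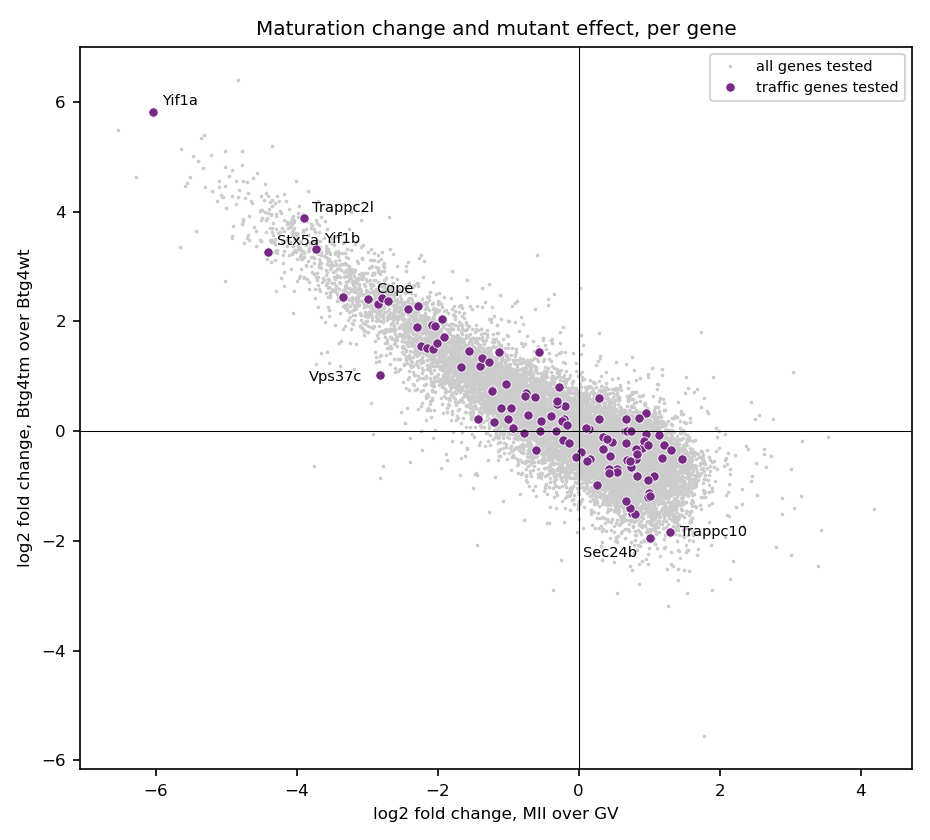
Each point is a gene tested, with the log2 fold change of MII over GV on the horizontal axis and that of Btg4tm over Btg4wt on the vertical axis, on the log2(scaled TPM + 1) scale; traffic genes are purple and all genes tested are grey. The traffic genes lie in the cloud of all genes, from Yif1a at the upper left to Sec24b at the lower right, and Vps37c lies at its lower edge on the left.

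Some of the traffic RNAs carry a cytoplasmic polyadenylation element (CPE), the motif by which CPEB1 controls tail length in maturing oocytes, near the 3′ end. The letters TTTTAT and TTTTAAT were searched on the sense strand in the last 100 bases of the longest coding transcript of GENCODE M21 on GRCm38. They were found in 19 of 107 traffic genes with such a 3′ untranslated region (17.8%), against 20.0% of all genes tested. Among traffic genes called lower in MII they were found in 5 of 33 (15.2%) and among those called higher in 2 of 9 (22.2%). Over all genes tested the shares were 10.6% of those called lower and 31.4% of those called higher. The matches in the traffic genes called in MII over GV are shown because the RNAs that carry them went both ways. Sec16b, called lower in Btg4tm alone, also has a match. The motif is in capitals, each sequence runs 5′ to 3′ on the strand of the gene, and all are in the 3′ untranslated region. Copb1 (chr7:114215573-114215594, minus strand) and Trappc2 (chrX:166453102-166453123, plus strand) were called higher.
Copb1: ttttgttaTTTTATaaataaat
Trappc2: actcttttTTTTATttcttaaa
Sec14l1 (chr11:117159223-117159244, plus strand), Sec22a (chr16:35311210-35311231, minus strand), Trappc6b (chr12:59043100-59043122, minus strand), Vps29 (chr5:122364963-122364984, plus strand) and Vps35l (chr7:118842949-118842966, plus strand) were called lower.
Sec14l1: aaagatttTTTTATtgttacaa
Sec22a: tgtaaggaTTTTATtttgttcc
Trappc6b: aaagtttaTTTTAATagacttga
Vps29: ttctttaaTTTTATtactatta
Vps35l: taaaattaTTTTATgtca
A match is a description of these letters and not of a site that was shown to act.

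Of the genes for entry into the ER, none was called higher in MII, 2 of 8 were called lower, and the subunits of one channel moved apart. Sec61a1, the pore of the translocon, stood at 47.7 and 50.7 scaled TPM in GV, 96.1 and 101.7 in MII, 117.9 and 122.7 in Btg4wt, and 51.9 and 57.6 in Btg4tm. Both MII and both Btg4wt libraries were above all the others. Its log2 change of 0.99 ± 0.11 (SE) in MII was just short of the limit, and it was called lower in Btg4tm than Btg4wt by limma, with a change of -1.12 ± 0.11 (adjusted p = 6.88e-05). Sec61g, the small gamma subunit of the same channel, went the other way, from 202.8 and 223.6 scaled TPM in GV to 74.9 and 85.2 in MII, and it stood at 80.0 and 69.0 in Btg4wt and 163.4 and 179.1 in Btg4tm. The ratio of Sec61g to Sec61a1 within a library, into which no scaling between libraries enters, was 4.25 and 4.41 in GV, 0.779 and 0.838 in MII, 0.679 and 0.563 in Btg4wt, and 3.15 and 3.11 in Btg4tm. Sec61b, the third subunit and the most abundant gene of this group, had 176.4 and 180.5 scaled TPM in GV and 300.8 and 300.4 in MII, a log2 change of 0.75 that was not called. Sec61a1, Sec61b and Sec61g share 14.6%, 40.97% and 20.5% of their 50-base words with other transcripts, so reads may be lost or split there. Of the 108 traffic genes tested, 19 share at least 10% of these words. Among them are Copg2 (22.1%), Vps35l (19.3%) and Vps51 (27.2%), which are described below.

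The catalytic subunits of signal peptidase, which trims the leader of proteins that enter the ER, showed the same kind of split. Sec11c had 59.2 and 59.8 scaled TPM in GV, 15.4 and 14.7 in MII, 18.3 and 16.9 in Btg4wt, and 57.1 and 63.1 in Btg4tm. It was called lower in MII, with a log2 change of -1.91 ± 0.12, and higher in Btg4tm, with 1.71 ± 0.12, and its Btg4tm mean was 101% of the GV mean. The paralogue Sec11a had 116.9 and 112.1 scaled TPM in GV and 170.8 and 148.5 in MII and was not called in either comparison. The ratio of Sec11c to Sec11a was 0.506 and 0.534 in GV and 0.090 and 0.099 in MII.

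The COPII coat, which carries cargo out of the ER, was the coat in which no tested gene was called lower in MII. Of 8 COPII genes tested, Sec23a and Sec24b were called higher in MII, and the median log2 change was 0.82. Sec13, an outer-coat subunit and the most abundant traffic RNA over all libraries, had 219.4 and 219.5 scaled TPM in GV and 344.8 and 356.0 in MII, a log2 change of 0.67 ± 0.09 that did not reach the limit. Sec23a, the inner-coat subunit that stimulates the GTPase SAR1, had 32.5 and 29.9 scaled TPM in GV, 78.3 and 69.3 in MII, 57.7 and 56.0 in Btg4wt, and 51.7 and 43.8 in Btg4tm. Its log2 change in MII was 1.21 ± 0.13 (limma, adjusted p = 7.12e-05). Sec23b, its paralogue, had 7.95 and 6.19 scaled TPM in GV and 3.75 and 3.61 in MII, a log2 change of -0.78 that was not called.

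Among the SEC24 cargo adaptors, Sec24b and Sec24c were called lower in Btg4tm than Btg4wt, and no COPII gene was called higher. Sec24b had 12.0 and 22.1 scaled TPM in GV, 32.3 and 35.5 in MII, 41.8 and 45.1 in Btg4wt, and 8.38 and 12.95 in Btg4tm. Its change of -1.96 ± 0.28 on the log2 scale was the largest fall of a traffic gene in Btg4tm (limma, adjusted p = 5.98e-04). The GV libraries of Sec24b differed widely, and its call in MII (log2 change 1.01) was lost without GV replicate 1 (0.59), without MII replicate 2 (0.95), by a small margin without either Btg4tm library (0.998 and 0.999), with the TPM as deposited (0.86) and at an adjusted p under 0.01 (limma, adjusted p = 0.013). Sec24c had 25.8 and 35.7 scaled TPM in GV, 51.9 and 50.3 in MII, 68.3 and 61.7 in Btg4wt, and 21.7 and 26.5 in Btg4tm, with a change of -1.40 ± 0.17 in Btg4tm over Btg4wt. Sec24a and Sec24d were not called in either comparison.

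The scaffolds of the ER exit site moved like Sec24c. Sec16a, on which COPII assembles, had 17.7 and 22.8 scaled TPM in GV, 36.6 and 32.9 in MII, 38.6 and 33.5 in Btg4wt, and 11.9 and 12.5 in Btg4tm. Its paralogue Sec16b had 4.28 and 5.71 scaled TPM in GV, 8.56 and 10.2 in MII, 10.8 and 14.9 in Btg4wt, and 3.09 and 4.67 in Btg4tm. Neither was called in MII, with log2 changes of 0.76 and 0.80, and both were called lower in Btg4tm than Btg4wt, with changes of -1.49 ± 0.16 and -1.51 ± 0.25 (limma, adjusted p = 1.24e-04 and 0.00125). The Btg4tm libraries of both genes lay below all Btg4wt and MII libraries. Sec23ip, which binds SEC23, had log2 changes of -0.54 in MII and 0.18 in Btg4tm and was not called.

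The p24 family, transmembrane receptors that sort cargo into COPI and COPII vesicles, had 2 of 8 tested genes called lower in MII and none called higher. Tmed3 had 26.6 and 19.1 scaled TPM in GV, 9.03 and 10.5 in MII, 6.62 and 7.77 in Btg4wt, and 23.6 and 19.3 in Btg4tm. Tmed6 was low in all groups, with 3.87 and 3.92 scaled TPM in GV, 0.345 and 0 in MII, 0 and 0.567 in Btg4wt, and 3.59 and 4.05 in Btg4tm, and was called in both comparisons. Tmed2, the most abundant p24 gene, had 157.8 and 131.1 scaled TPM in GV, 273.0 and 285.5 in MII, 239.6 and 239.7 in Btg4wt, and 338.5 and 270.8 in Btg4tm. Its log2 change of 0.95 in MII was short of the limit, and 27.6% of its 50-base words are shared with other transcripts. It was the only traffic gene called between Btg4tm and GV, with a change of 1.07 ± 0.13 (limma, adjusted p = 0.0052), where the background over all genes tested was 1.02% higher and 1.02% lower, and this call was lost with the TPM as deposited. Tmed9 had a log2 change of 0.99 in MII and was not called.

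The COPI coat, which returns material from the Golgi to the ER, had genes called in opposite directions. Of its 8 genes, Cope, Copg1, Copz1 and Copz2 were called lower in MII and Copb1 higher, and Cope, Copz1 and Copz2 were called higher in Btg4tm. Copz2 was low and its replicates differed widely. It had 6.10 and 2.96 scaled TPM in GV, 0 and 0.925 in MII, 0.628 and 0.056 in Btg4wt, and 3.13 and 6.05 in Btg4tm. Cope, the epsilon subunit, had 89.7 and 84.4 scaled TPM in GV, 7.80 and 12.9 in MII, 10.003 and 10.6 in Btg4wt, and 52.9 and 65.7 in Btg4tm. It fell by 2.99 ± 0.21 on the log2 scale in MII (limma, adjusted p = 1.01e-05) and was higher in Btg4tm by 2.41 ± 0.21 (adjusted p = 5.07e-05). The Btg4tm libraries lay between those of GV and those of MII, at 68.1% of the GV mean. Copz1, the zeta subunit, had 183.8 and 190.8 scaled TPM in GV, 35.3 and 42.6 in MII, 51.96 and 45.6 in Btg4wt, and 135.4 and 153.1 in Btg4tm.

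Copb1, the beta subunit of the same coat, went up from 146.9 and 148.8 scaled TPM in GV to 317.8 and 305.2 in MII. It stood at 342.3 and 339.8 in Btg4wt and 197.2 and 191.3 in Btg4tm. Its log2 change was 1.07 ± 0.09 in MII (limma, adjusted p = 1.84e-05) and -0.81 ± 0.09 in Btg4tm over Btg4wt, which was short of the limit. With the TPM as deposited the change in MII was 0.91 and was not called. The ratio of Cope to Copb1 within a library was 0.611 and 0.567 in GV, 0.025 and 0.042 in MII, 0.029 and 0.031 in Btg4wt, and 0.268 and 0.343 in Btg4tm, so the subunits changed unequally whatever the scaling. Copg1, a gamma subunit, had 18.9 and 15.2 scaled TPM in GV and 6.27 and 7.13 in MII, while its paralogue Copg2 had 6.21 and 5.98 in GV and 11.4 and 7.55 in MII and was not called. Copa and Copb2, with log2 changes of 0.55 and 0.43 in MII, were not called.

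**Figure D2:**
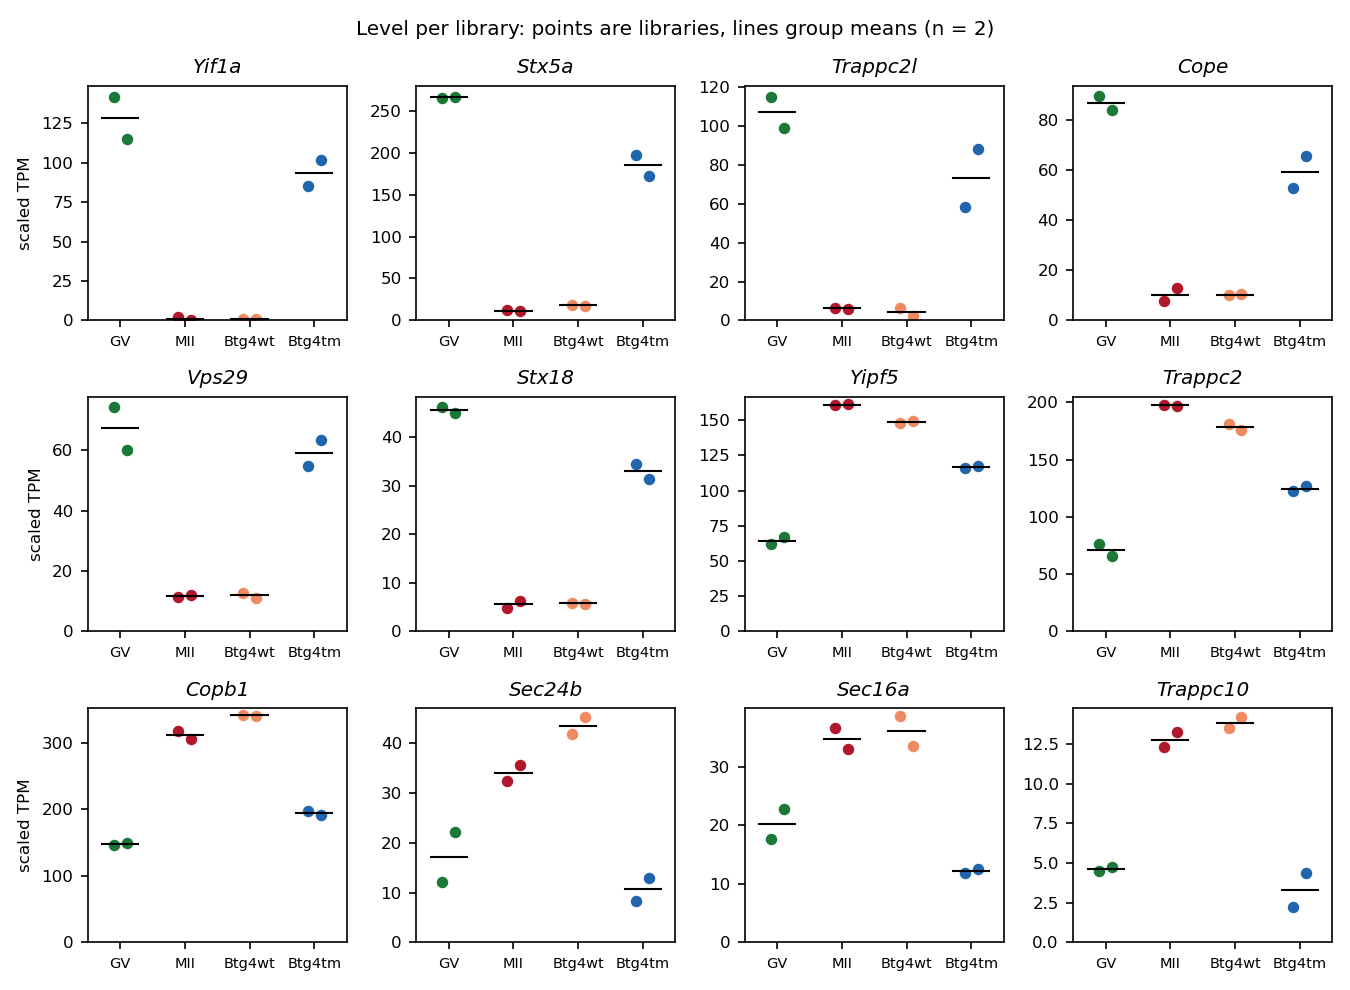
Scaled TPM of 12 traffic genes in each library, with 1 panel a gene on its own axis from 0; points are libraries and black lines are group means of 2 libraries. Yif1a, Stx5a, Trappc2l, Cope, Vps29 and Stx18 are high in GV and Btg4tm and low in MII and Btg4wt, and Copb1, Sec24b, Sec16a and Trappc10 are highest in MII and Btg4wt.

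The TRAPP genes, which encode the activators of Rab GTPases at the Golgi, had 6 of 15 called lower in MII and 3 higher. Trappc2l had 114.9 and 99.1 scaled TPM in GV, 6.55 and 5.96 in MII, 6.18 and 2.41 in Btg4wt, and 58.6 and 88.0 in Btg4tm. It fell by 3.89 ± 0.33 on the log2 scale in MII and was higher by 3.88 ± 0.33 in Btg4tm (limma, adjusted p = 2.34e-05 and 3.92e-05). Trappc2, its paralogue in the core of the complex, was called higher in MII, with 76.2 and 65.9 scaled TPM in GV, 198.1 and 196.7 in MII, 180.8 and 175.5 in Btg4wt, and 122.4 and 127.0 in Btg4tm. The log2 change of Trappc2 in MII was 1.46 ± 0.10, the largest rise of a traffic gene, and 22.6% of its 50-base words are shared with other transcripts. The ratio of Trappc2l to Trappc2 was 1.51 and 1.503 in GV and 0.033 and 0.030 in MII.

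A second pair of TRAPP paralogues was also called in opposite directions. Trappc6b had 85.7 and 82.4 scaled TPM in GV, 33.9 and 30.3 in MII, 35.5 and 34.5 in Btg4wt, and 93.8 and 85.2 in Btg4tm, so its Btg4tm mean was 107% of the GV mean. Trappc6a had 24.2 and 20.0 scaled TPM in GV, 51.7 and 50.6 in MII, 44.6 and 54.3 in Btg4wt, and 32.3 and 37.9 in Btg4tm. In GV Trappc6b exceeded Trappc6a by 3.55 and 4.11 times, and in MII the ratio was 0.656 and 0.598. The log2 changes in MII were -1.36 ± 0.11 for Trappc6b and 1.18 ± 0.15 for Trappc6a (limma, adjusted p = 2.08e-05 and 2.26e-04). The pairs of paralogues and subunits set side by side here were chosen after their values were seen.

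Of the subunits that tell the TRAPP complexes apart, Trappc10 belongs to TRAPPII and Trappc12 and Trappc13 to TRAPPIII. Trappc10 had 4.49 and 4.78 scaled TPM in GV, 12.3 and 13.2 in MII, 13.5 and 14.2 in Btg4wt, and 2.22 and 4.35 in Btg4tm. It was called higher in MII, with a log2 change of 1.29 ± 0.24, and lower in Btg4tm than Btg4wt, with -1.84 ± 0.24 (limma, adjusted p = 0.00185 and 3.90e-04). Trappc13 had 75.8 and 70.3 scaled TPM in GV, 14.7 and 13.8 in MII, 15.0 and 11.8 in Btg4wt, and 71.3 and 66.8 in Btg4tm, at 94.5% of the GV mean. Trappc12 was lower, with 4.18 and 3.49 scaled TPM in GV and 0.750 and 1.41 in MII, and was not called in Btg4tm. Trappc8, Trappc9 and Trappc11 were not called in either comparison. Trappc4 and Trappc5, both of the core, were called lower in MII and higher in Btg4tm, and 18.9% of the exonic bases of Trappc4 overlap Rps25 on the opposite strand, which counting without strand cannot separate. Trappc3l, the most abundant TRAPP RNA, differed little between groups, from 226.8 scaled TPM in a Btg4wt library to 270.9 in an MII library.

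The YIP family, multispan membrane proteins of the Golgi and ER exit sites that bind Rab GTPases, held the traffic RNA with the largest change. Yif1a had 141.5 and 115.1 scaled TPM in GV, 1.91 and 0.333 in MII, 0.660 and 0.654 in Btg4wt, and 85.3 and 101.4 in Btg4tm. Its MII mean was 0.874% of the GV mean, its Btg4wt mean 0.512%, and its Btg4tm mean 72.8%. The log2 changes were -6.03 ± 0.32 in MII and 5.83 ± 0.32 in Btg4tm over Btg4wt (limma, adjusted p = 2.39e-06 and 4.94e-06). Yif1b had 43.5 and 46.8 scaled TPM in GV, 2.32 and 2.65 in MII, 3.56 and 2.08 in Btg4wt, and 36.02 and 36.5 in Btg4tm, and 26.5% of its exonic bases overlap a gene on the opposite strand.

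Yipf5, which binds YIF1A in a complex, was called higher in MII. It had 61.9 and 66.8 scaled TPM in GV, 160.5 and 161.5 in MII, 147.7 and 149.2 in Btg4wt, and 115.8 and 117.7 in Btg4tm, with a log2 change of 1.31 ± 0.09 in MII (limma, adjusted p = 9.79e-06). The ratio of Yif1a to Yipf5 was 2.29 and 1.72 in GV, 0.012 and 0.0021 in MII, and 0.736 and 0.862 in Btg4tm. Yipf4 was also called higher in MII, from 125.4 and 127.7 to 288.9 and 270.7 scaled TPM, and it was at 198% of its GV mean in Btg4tm. With the TPM as deposited the change of Yipf4 was 0.98 and was not called. Yipf1, Yipf2 and Yipf3 were called lower in MII, and Yipf1 and Yipf3 higher in Btg4tm. Yipf2, with a log2 change of -1.01, shares 52.1% of its exonic bases with Carm1 and Timm29 on the opposite strand. Yipf6 was not called, and Yipf7, which was low, was called higher in Btg4tm than Btg4wt without a call in MII.

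Of the SNAREs, 4 of 15 tested genes were called lower in MII, none was called higher, and the same 4 (Sec22a, Stx5a, Stx8 and Stx18) were called higher in Btg4tm. Stx5a, the syntaxin of ER to Golgi transport, had 265.4 and 266.7 scaled TPM in GV, 12.6 and 10.8 in MII, 18.9 and 17.5 in Btg4wt, and 197.5 and 172.4 in Btg4tm. It was the most abundant of these SNARE RNAs in GV oocytes and fell to 4.39% of its GV mean, with a log2 change of -4.40 ± 0.12 in MII and of 3.27 ± 0.12 in Btg4tm over Btg4wt (limma, adjusted p = 2.55e-07 and 1.02e-06). Stx18, the ER syntaxin that receives COPI vesicles, had 46.3 and 45.1 scaled TPM in GV, 4.88 and 6.22 in MII, 5.91 and 5.70 in Btg4wt, and 34.5 and 31.5 in Btg4tm, and 32.3% of its exonic bases overlap other genes on the opposite strand. Use1 and Bnip1, which encode the SNARE partners of STX18 and lie outside the symbol rule, had log2 changes of -5.30 ± 0.20 and -3.86 ± 0.23 in MII and of 4.44 ± 0.20 and 2.78 ± 0.23 in Btg4tm over Btg4wt. Sec22a had 146.8 and 142.8 scaled TPM in GV and 33.6 and 33.8 in MII. Its paralogue Sec22b, a SNARE of ER-derived vesicles, had 56.6 and 57.6 in GV and 50.2 and 49.8 in MII and was not called.

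Syntaxins of endosomes and the cell surface mostly stayed within the limit. Stx7, the gene with the largest positive change of the group, had 12.3 and 10.5 scaled TPM in GV, 23.1 and 22.1 in MII, 22.1 and 26.3 in Btg4wt, and 19.8 and 22.5 in Btg4tm, a log2 change of 0.93 in MII. Stx2 and Stx12 had log2 changes of 0.74 and 0.68 in MII and of 0.00 and 0.00 in Btg4tm over Btg4wt. Stx8, an endosomal syntaxin, went from 17.9 and 17.6 scaled TPM in GV to 4.76 and 6.07 in MII and stood at 12.9 and 17.1 in Btg4tm.

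**Figure D3:**
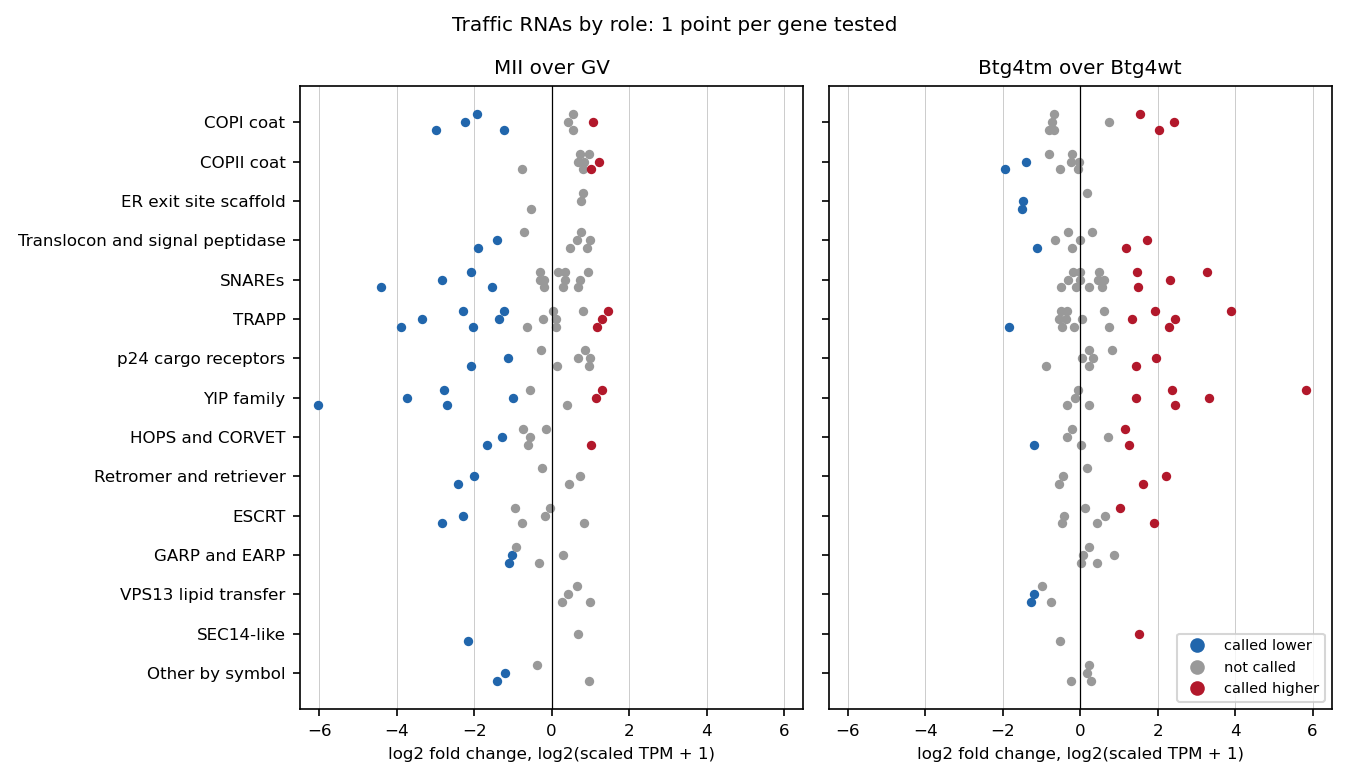
Log2 fold change of each traffic gene tested, by role, for MII over GV on the left and Btg4tm over Btg4wt on the right, on the log2(scaled TPM + 1) scale; blue points were called lower, red points higher and grey points were not called. COPII coat, ER exit site and VPS13 genes have no blue point on the left, and YIP family genes span from -6.03 to 1.31 there.

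Retromer and retriever, which retrieve receptors from endosomes, share the subunit VPS29. Vps29 had 74.6 and 60.3 scaled TPM in GV, 11.5 and 12.0 in MII, 12.8 and 11.01 in Btg4wt, and 54.9 and 63.4 in Btg4tm, with log2 changes of -2.42 ± 0.15 in MII and 2.22 ± 0.15 in Btg4tm over Btg4wt (limma, adjusted p = 5.61e-06 and 1.42e-05). Vps26a, the most abundant of the group, had 316.0 and 300.8 scaled TPM in GV and 268.0 and 253.9 in MII and was not called, nor was Vps35. The ratio of Vps29 to Vps26a was 0.236 and 0.2004 in GV and 0.043 and 0.047 in MII. Vps35l, the retriever counterpart of Vps35, was called lower in MII, with 36.6 and 28.7 scaled TPM in GV and 7.26 and 7.37 in MII, and higher in Btg4tm, with 27.3 and 24.1. Vps26c, the other retriever subunit, had a log2 change of 0.73 in MII.

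HOPS and CORVET tether endosomes and lysosomes, and VPS33B, a paralogue of their subunit VPS33A, works in another complex. With Vps33b counted in the group, 2 of 7 genes were called lower in MII (Vps11 and Vps33b) and 1 was called higher. Vps11, of the shared core, had 11.7 and 12.8 scaled TPM in GV, 2.74 and 3.66 in MII, 5.02 and 2.88 in Btg4wt, and 10.9 and 8.86 in Btg4tm. Its call in Btg4tm (log2 change 1.16) was lost with quantile normalization (0.93) and without Btg4wt replicate 2 (0.84). Vps39, a subunit of HOPS and not of CORVET, had 23.02 and 23.8 scaled TPM in GV, 46.1 and 50.1 in MII, 42.2 and 49.9 in Btg4wt, and 22.2 and 17.4 in Btg4tm, and was called higher in MII and lower in Btg4tm. Its log2 change of 1.01 in MII was near the limit, and the call was lost with the TPM as deposited (0.85) and without GV replicate 1 (0.98), MII replicate 2 (0.96) or either Btg4tm library (0.996 and 0.998). Vps41, the other HOPS-specific subunit, had log2 changes of -0.14 and -0.21. Vps33b had 23.97 and 25.9 scaled TPM in GV, 10.5 and 8.96 in MII and 22.2 and 24.4 in Btg4tm, and the call of Vps33b in MII was lost with quantile normalization (-0.998), while Vps33a was under 2 scaled TPM in all libraries and was not called.

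The ESCRT genes, which sort membrane proteins into endosomal vesicles, had 2 of 7 tested genes called lower in MII, both subunits of ESCRT-I. Vps28 had 16.3 and 16.1 scaled TPM in GV, 1.37 and 4.23 in MII, 3.55 and 2.31 in Btg4wt, and 12.8 and 14.2 in Btg4tm. Vps37c had 18.1 and 16.8 scaled TPM in GV, 1.28 and 1.97 in MII, 4.66 and 4.38 in Btg4wt, and 9.40 and 11.1 in Btg4tm. Its fall of 2.82 ± 0.20 on the log2 scale in MII stood beside a difference of only 1.02 ± 0.20 between Btg4tm and Btg4wt, and that call was lost with quantile normalization (0.79), without Btg4wt replicate 2 (0.98) and without Btg4tm replicate 2 (0.91). Vps37a and Vps37b were not called. Vps4a, the ATPase that takes ESCRT apart and the most abundant gene of the group, had 108.8 and 102.4 scaled TPM in GV and 56.2 and 51.9 in MII, a log2 change of -0.95 that was short of the limit.

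GARP and EARP tether vesicles that return from endosomes. Vps51 and Vps53 were called lower in MII, with log2 changes of -1.09 and -1.03, and no gene of the group was called in Btg4tm. Vps51 was the only traffic gene that passed the filter on low values through 1 group alone, here GV, so it had to differ. Its call, 1 of the 34, is given as a value only. Copz2 and Tmed6 stayed under 1 scaled TPM in every MII and Btg4wt library and passed the filter through GV and Btg4tm. These are the higher groups of both comparisons, so their calls in both are also given as values only. Vps51 had low values in all groups. This gene stood at 1.13 and 1.75 scaled TPM in GV, 0.067 and 0.209 in MII, 0.123 and 0.191 in Btg4wt, and 0.642 and 0.455 in Btg4tm. The call of Vps53 in MII was lost with quantile normalization (-0.70), without GV replicate 2 (-0.98) and without MII replicate 1 (-0.99), and that of Vps51 with quantile normalization (-0.89). The VPS13 proteins, long channels that pass lipids between membranes, were the reverse. None of the 4 was called in MII, with log2 changes of 0.26 to 0.99, and Vps13a and Vps13c were called lower in Btg4tm than Btg4wt. Vps13a had 8.17 and 9.22 scaled TPM in GV, 18.9 and 17.5 in MII, 19.6 and 16.7 in Btg4wt, and 6.28 and 8.54 in Btg4tm. Vps13c was low, at 2.41 and 1.80 scaled TPM in Btg4wt and 0.233 and 0.315 in Btg4tm.

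Of the SEC14-like genes and the genes outside the groups above, Sec14l1, Vps45 and Vps9d1 were called lower in MII. Vps45, which assists SNARE assembly, had 8.08 and 7.16 scaled TPM in GV, 2.86 and 2.60 in MII, 5.52 and 5.08 in Btg4wt, and 5.87 and 6.26 in Btg4tm. Vps9d1 had 6.99 and 6.57 in GV, 1.55 and 2.32 in MII, 2.96 and 4.03 in Btg4wt, and 4.29 and 4.13 in Btg4tm. Both were among the 7 falling genes that were not called in Btg4tm, with Copg1, Trappc12, Vps51, Vps53 and Yipf2. Vps72 had 76.5 and 84.1 scaled TPM in GV and 169.2 and 149.0 in MII, a log2 change of 0.98 that was not called.

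**Figure D4:**
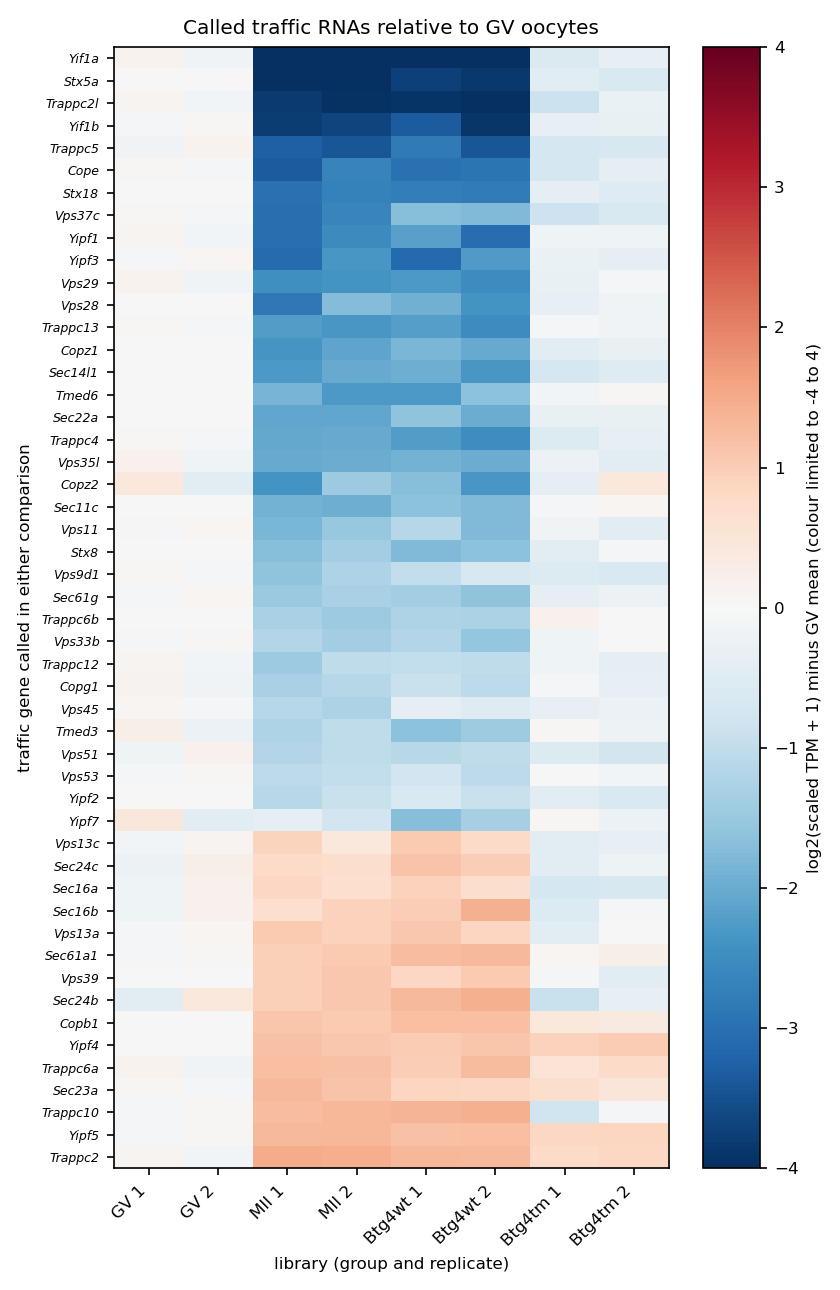
Each row is 1 of the 50 traffic genes called in MII over GV or in Btg4tm over Btg4wt and each column a library; colour gives log2(scaled TPM + 1) minus the GV mean, limited to -4 to 4. MII and Btg4wt columns look alike, and in the Btg4tm columns the falling genes are near the GV level.

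The comparison of Btg4wt with MII asks what the injection of the wild-type RNA changed in MII oocytes. No traffic gene was called in either direction by limma, where 0% of all genes tested were called higher and 0% lower, and 7 traffic genes (6.48%) were higher and 4 (3.7%) lower at an unadjusted p under 0.05, against 6.77% and 5.08% of all genes tested. The largest difference was that of Vps37c, at 1.08 ± 0.20 on the log2 scale (adjusted p = 0.156), followed by Yipf7, at -0.96 ± 0.32 (adjusted p = 0.328). Vps45 and Stx5a differed by 0.76 ± 0.18 and 0.60 ± 0.12. In Btg4tm over GV, which uses the libraries of the other comparisons, the median over the traffic genes was -0.10 against -0.08 over all genes tested. Beside the call of Tmed2, Yipf4, Yipf5 and Trappc2 had log2 differences of 0.98, 0.85 and 0.81, and the largest negative difference was that of Vps37c, at -0.72 ± 0.20. Over the 9 genes called higher in MII, 6 were above GV in Btg4tm, and the median over the 9 was 153% of the GV mean. Sec24b, Trappc10 and Vps39 were below GV, as were 17.2% of all genes called higher in MII. All these genes were chosen on the same GV libraries.

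Transcript length moved with the changes of the traffic genes, as it did over all genes. Across the 108 genes, Spearman's rho between the length of the longest coding transcript and the log2 change was 0.25 for MII over GV and -0.44 for Btg4tm over Btg4wt, against 0.40 and -0.50 across 11097 genes tested with a coding transcript. These genes share the same libraries and are not independent, so the values are descriptions. Genes called higher in Btg4tm had a median length of 1948 bases and those called lower of 5047 bases. Over all genes tested these medians were 1761 and 5168 bases. The part of length in the calls was not tested.

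**Figure D5:**
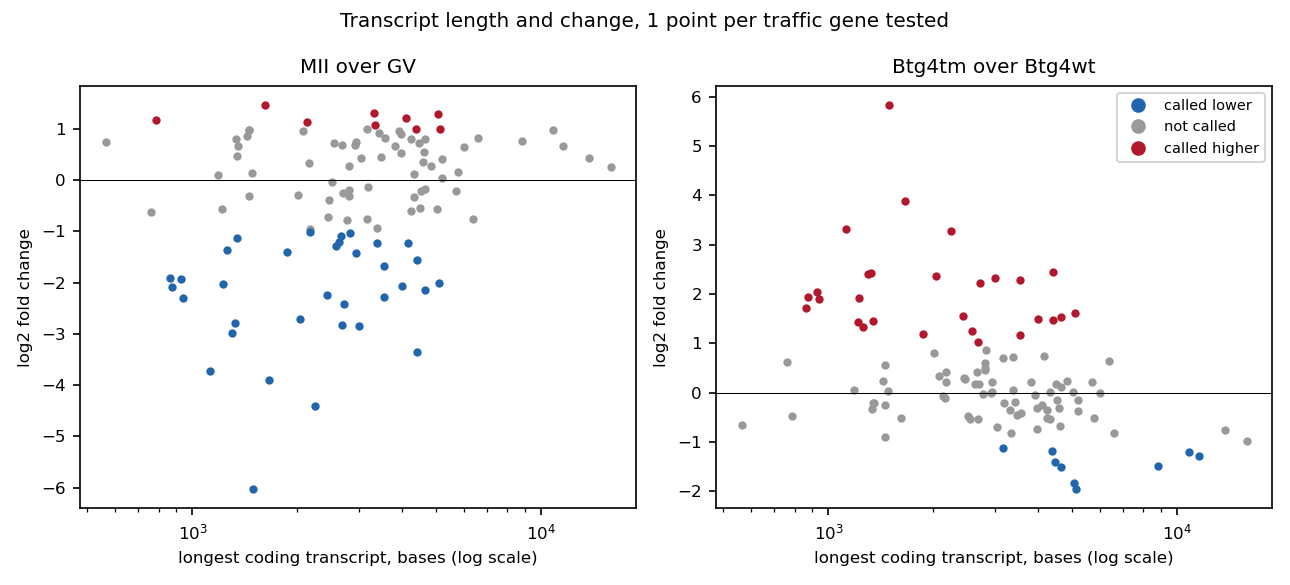
Log2 fold change of each traffic gene tested against the length of its longest coding transcript in bases (log axis), for MII over GV on the left and Btg4tm over Btg4wt on the right; blue points were called lower, red points higher and grey points were not called. On the right the genes called lower lie among the longer transcripts, with a median of 5047 bases, and those called higher have a median of 1948 bases.

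Other genes of the same pathway, from lists of 167 genes outside the symbol rule, were also called in both directions. Of 156 tested, 45 (28.8%) were called lower in MII and 12 (7.69%) higher, and 35 (22.4%) were called higher in Btg4tm and 10 (6.41%) lower, beside the shares of all genes tested given above. Sar1b, a GTPase that starts the COPII coat, had 281.1 and 241.6 scaled TPM in GV, 23.96 and 21.2 in MII, 19.0 and 22.7 in Btg4wt, and 207.9 and 251.3 in Btg4tm, and Sar1a, its paralogue, had log2 changes of -1.49 in MII and 1.32 in Btg4tm. Both GTPase genes were called lower in MII in the main scaling, in which no COPII coat subunit was called lower. With scaling to the mitochondrially encoded genes, the coat genes Sec13, Sec24b and Sec24c changed by -1.54, -1.12 and -1.43 in MII. Kdelr2, a receptor that returns ER proteins, rose from 107.7 and 84.4 scaled TPM in GV to 495.1 and 506.0 in MII and stood at 331.6 and 376.8 in Btg4tm. Kdelr1, its paralogue, had 17.4 and 29.3 scaled TPM in GV, 29.04 and 27.5 in MII, 39.2 and 36.5 in Btg4wt, and 6.43 and 10.2 in Btg4tm. Its log2 change in Btg4tm over Btg4wt was -2.09 ± 0.26 (limma, adjusted p = 3.02e-04). In Btg4tm over GV, Kdelr1 was called lower, with -1.37 ± 0.26, and Kdelr2 higher, with 1.88 ± 0.13 (limma, adjusted p = 0.0166 and 0.00203). In a list of Golgi tethers and proteins that act with them, 4 of 20 genes tested were called higher in MII and 4 lower. Those called higher were Golgb1, Trip11, Gcc2 and Golga4, all long coiled-coil golgins. Those called lower were Cog1, Cog4, Cog8 and the GTPase gene Arfrp1. The golgin genes Golga1, Golga2 and Golga5 were not called, nor were Cog2, Cog3, Cog5, Cog6 and Cog7.

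Counts by list are given as called higher and called lower in MII, beside 12.5% and 24% of all genes tested. The COPI coat and ARF1 cycle had 1 and 1 of 9 genes, and COPII and ER exit had 3 and 6 of 20. Retrieval receptors and their tether had 1 and 3 of 9. Further SNAREs and genes that act on SNAREs had 0 and 6 of 20, the 6 being Gosr1, Napa, Vti1b, Snap47, Vamp8 and Stxbp2. Partners of the translocon had 2 and 9 of 26, and clathrin and its adaptors had 1 and 8 of 24. Further ESCRT, retromer and HOPS genes had 0 and 8 of 28. No list was compared with all genes by a test.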

How the data were processed

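The traffic genes, the gene lists and the tests were chosen with earlier results of these data known. The authors trimmed reads with Trim Galore 0.6.10, aligned them to GRCm38 with HISAT2 2.2.0 and the GENCODE vM25 annotation, counted exonic reads without strand with featureCounts 2.0.6 at a mapping quality of at least 10, and deposited TPM per gene symbol. Counts were not used here, so depth and counting error are unknown and the authors' count test was not repeated. TPM sums were 996199 to 998615 per library. The 15962 genes listed in all 8 tables were scaled by the median of ratios (factors 0.948 to 1.11), and the 13968 with at least 1 deposited TPM in at least 2 libraries were fitted on log2(scaled TPM + 1), which understates changes of low genes, with limma 3.58.1 in R 4.3.3 (lmFit, contrasts, eBayes with trend), with 1 coefficient for each of the 4 groups. Adjusted p-values are Benjamini-Hochberg over all genes tested. The procedure was tested on simulated data. Transcript properties came from GENCODE M21 on GRCm38, in which all 114 genes matched by symbol and 11097 of the genes tested had a coding transcript. Named by rule were, in each role, the most abundant gene and those with the extreme changes, every gene called higher in MII or lower in Btg4tm, the untested genes, Yif1a and Stx5a. Other genes named were chosen after their values were seen. Alternatives replaced the scaling (TPM as deposited, quantile normalization, or mitochondrially encoded genes as the reference), the pseudocount (0.1), the filter (none, or 5 TPM), the libraries fitted (4 per comparison, or 1 left out at a time), the model (a block for the replicate number, or no trend in eBayes) and the call (any fold change, or an adjusted p under 0.01). A fit without a library leaves 1 in its group, which is assumed to vary like the others.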

Additional observations from a re-analysis of the deposited data

How the results depend on the processing

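Scaling to the mitochondrially encoded genes moved most values. It gave 100 traffic genes lower and 0 higher in MII than GV (81.6% and 0.0501% of all genes tested). In Btg4tm over Btg4wt it gave 56 higher and 0 lower (43.6% and 0.494%). In Btg4tm over GV it gave 0 higher and 21 lower (0.272% and 21.3%). Under it the log2 changes of these genes in MII over GV were negative: Copb1 -1.14, Sec13 -1.54, Sec14l3 -1.17, Sec16a -1.38, Sec16b -1.13, Sec23a -0.96, Sec24b -1.12, Sec24c -1.43, Sec61a1 -1.19, Sec61b -1.46, Stx7 -1.16, Tmed2 -1.25, Tmed9 -1.09, Trappc10 -0.67, Trappc2 -0.73, Trappc3l -2.11, Trappc6a -0.97, Vps13a -1.07, Vps13c -0.47, Vps13d -1.31, Vps26c -1.43, Vps36 -1.13, Vps39 -1.15, Vps50 -1.86, Vps72 -1.22, Yipf4 -1.07 and Yipf5 -0.89. In Btg4tm over Btg4wt these became positive: Copb1 0.27, Sec13 0.87, Sec14l3 0.31, Sec23a 0.82, Sec23b 0.87, Sec61b 0.43, Stx7 0.85, Tmed9 0.12, Trappc2 0.57, Trappc6a 0.58, Vps26c 0.51, Vps36 0.53, Vps72 0.83, Yipf4 1.02 and Yipf5 0.74. Traffic genes called higher in MII numbered 9 in the main fit and 5 with the TPM as deposited (12.5% and 8.2% of all genes tested). Counts were 27 with quantile normalization, 14 with a pseudocount of 0.1 and 37 with no minimum fold change (22.2%, 15.7% and 29.8%). With no minimum fold change 25 were lower in Btg4tm than Btg4wt (23.3% of all genes tested). Under the same setting 14 were higher and 2 lower in Btg4tm than GV (7.66% and 3.73%). With the TPM as deposited 0 were higher in Btg4tm than GV (0.573% of all genes tested), and Trappc3l changed by -0.057 in MII. With quantile normalization Sec23ip changed by -0.018 and Trappc3l by -0.16 in Btg4tm over Btg4wt. Leaving out each library in turn gave 7 to 14 genes higher in MII (14 without GV replicate 2) and 31 to 36 lower, and 26 to 28 higher and 9 to 11 lower in Btg4tm. Among the 47 genes named by the rule, for which these fits were recorded gene by gene, the direction of 4 that were not called turned: Sec1 ran from -0.96 to 0.19 in MII over GV, and in Btg4tm over Btg4wt Sec1 ran from -0.33 to 0.90, Sec14l3 from -1.08 to 0.013, Sec23b from -0.29 to 0.23 and Trappc3l from -0.039 to 0.13. The replicate numbers did not pair the libraries (correlations of same-numbered deviations of -0.05 to 0.06). A replicate block left the counts at 34 lower and 9 higher in MII (23.9% and 12.6% of all genes tested). In Btg4tm over Btg4wt they were 28 higher and 9 lower (18.1% and 7.94%). With 2 libraries per group and no counts, small changes and low genes are measured least well. The cause of these moves was not tested.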
